A study of Rattus norvegicus with 28 samples.

Results

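The genes described here are 10 genes of the glucocorticoid response in rat muscle: the receptor gene Nr3c1 and the responsive genes Fkbp5, Ddit4, Tsc22d3, Klf9, Klf15, Cebpd, Cebpb, Sgk1 and Zbtb16. A probe set was taken as a member when its gene symbol is one of these, which gave 10 of the 26208 probe sets of the deposited table. They measure 9 of the 10 genes, because Klf9 has 2 probe sets and Cebpd has none under that symbol and is not analysed here. The rule uses gene names and no measured value, but the members were chosen with earlier results of these data known. Their shares beside those of all probe sets are therefore descriptions and no test.

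Glucocorticoids cross the cell membrane and bind a receptor that waits in the cytoplasm, held by heat shock proteins and their co-chaperones. The loaded receptor moves to the nucleus, binds DNA and switches target genes on or off. In skeletal muscle the pathway is known for restraining protein synthesis, for promoting protein breakdown and the use of amino acids as fuel, and for damping inflammation. Several of its targets, Fkbp5 foremost, are used as read-outs of receptor activity in many tissues.

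Expression was measured in the proximal gastrocnemius, a calf muscle, of 28 rats (Sprague-Dawley females) with the Rat Gene 1.0 ST array of Affymetrix, to follow how muscle gene expression changes with time in a rodent model of intensive care. The 5 control rats were sham-operated, which by the study's methods means that they were anaesthetised with isoflurane, breathed on their own, were not paralysed and were killed within hours of surgery. The 23 other rats were anaesthetised, paralysed with the snake venom protein α-cobrotoxin, which shuts off the acetylcholine receptors of the motor endplate, and mechanically ventilated. They form the groups 0.25-4d (n = 13), 5-8d (n = 4) and 9-14d (n = 6), named by the days of treatment. Isoflurane was lowered over the first days after surgery in the ventilated rats, so paralysis, ventilation, immobility, anaesthesia, time since surgery and any hormone response to them cannot be told apart in these groups. The labels read for this work name no steroid given to any group. One label field of the controls names the blocker and the ventilator as well, against their titles and the methods, and the titles were followed. The series text gives the middle group as 5 to 9 days and the samples' labels as 5-8d.

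The deposited table holds, for each probe set, the log2 change of each treated group against the controls and a p-value adjusted over all probe sets, and no value of a single array was used here. The value in each rat, the levels of a gene and the overlap of the groups can therefore not be shown, nor can the labelled tissue be checked against the level of muscle markers. The standard error (SE), the 95% confidence interval and the comparisons between durations were recovered from the table through limma's moderated statistic, with 28.26 degrees of freedom. A probe set is called up-regulated or down-regulated when it changed 2-fold or more and its adjusted p was below 0.05, and is said to rise or fall at any size when the adjusted p alone is below 0.05. Positions are on the rat build RGSC3.4, as in the table's annotation. All comparisons against the controls share the same 5 rats. The muscle was measured as a whole, so fewer cells of a type and less RNA per cell cannot be told apart. By the methods each array is 1 rat, and p-values rest on the spread between these arrays.

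Of the 10 probe sets, 6 rose in the first days (Fkbp5, Ddit4, Tsc22d3, Klf15, Zbtb16 and the minus-strand Klf9 probe set), and none of these 6 was past the test as higher than the controls at a later duration. Sgk1 was called at 9-14d instead, and Nr3c1 was lower throughout. At 0.25-4d, 3 of the 10 probe sets were called up-regulated (Fkbp5, Ddit4 and Tsc22d3), where 0.305% of all 26208 were. At any size 6 rose, against 1.49% of all probe sets, and 1 fell (Nr3c1), against 2.06%. The list's median log2 change was 0.85, beside -0.01 over all probe sets. At 5-8d 0 members were called by limma, with 5 of 10 at an unadjusted p under 0.05. In that group 2.55% of all probe sets were called up-regulated and 2.66% down-regulated. At any size 0 rose and 1 fell (Nr3c1), where 14.9% of all probe sets rose and 11.4% fell. At 9-14d 1 member was called up-regulated (Sgk1), against 3.01% of all probe sets, and 0 were called down-regulated, against 2.12%. At any size 1 rose and 2 fell at 9-14d, against 17.3% and 18.2%. The median log2 change of the list was 0.03 at 5-8d and -0.17 at 9-14d, beside -0.04 and -0.07 over all probe sets.

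**Figure D1:**
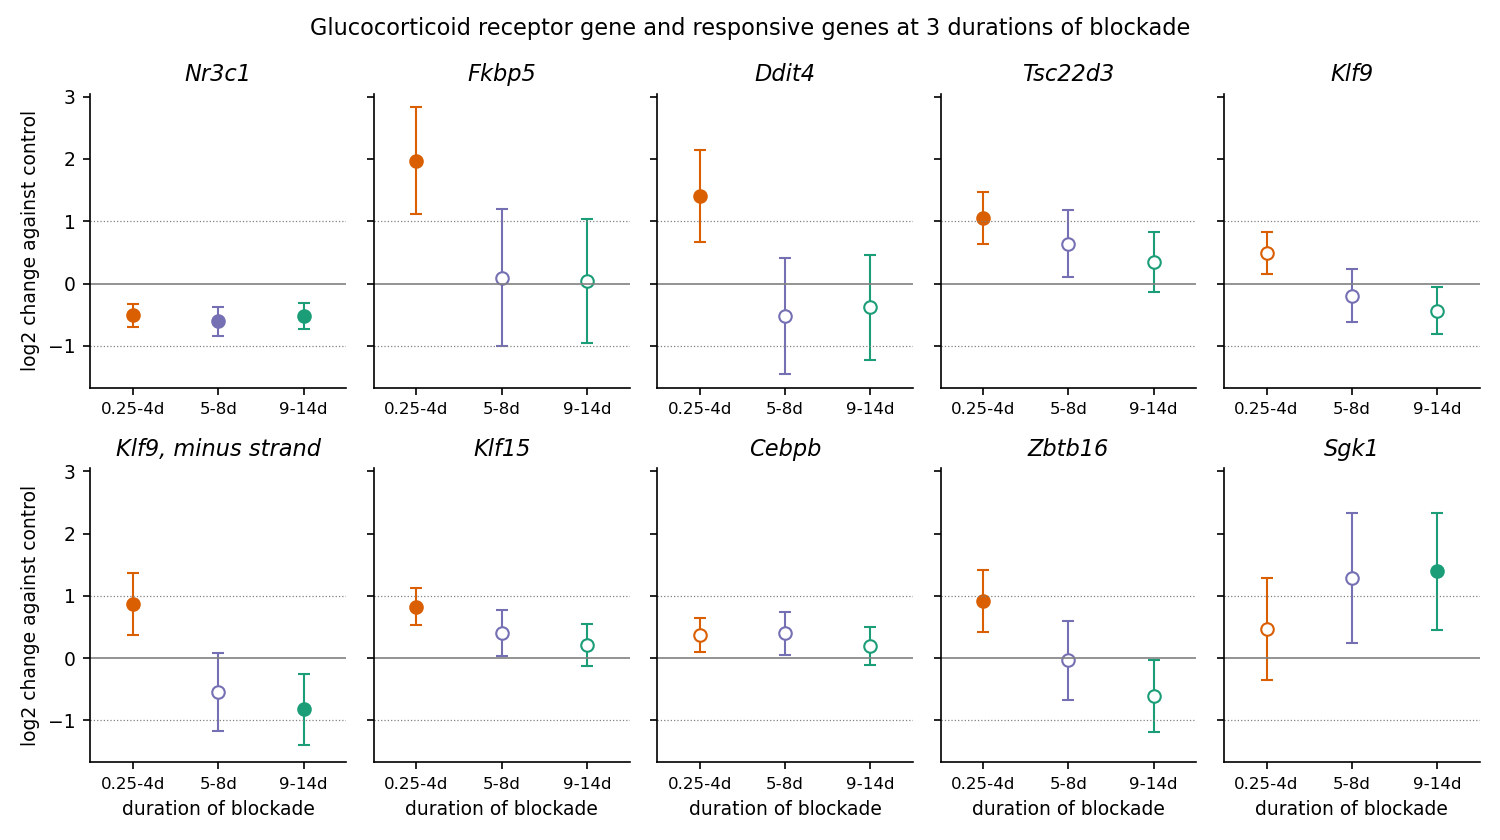
Log2 change against the controls (y axis, 1 unit is 2-fold) of the 10 probe sets at the 3 durations (x axis), with 95% confidence intervals. Filled points have an adjusted p below 0.05, and dotted lines mark 2-fold. Fkbp5, Ddit4 and Tsc22d3 pass 2-fold at 0.25-4d, Sgk1 at 9-14d, and Nr3c1 is lower by a similar amount at each duration.

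The receptor gene was lower than in the controls at every duration, and by a similar amount. Nr3c1 (chromosome 18, minus strand, 32371500 to 32459145) had a log2 change of -0.51 at 0.25-4d (SE 0.09, adjusted p = 0.000929). It was -0.61 at 5-8d (SE 0.11, adjusted p = 0.00019) and -0.52 at 9-14d (SE 0.10, adjusted p = 0.000234). As folds these are 1.42, 1.52 and 1.44 times lower, below the 2-fold minimum, so the gene is not called at any duration. Its 3 values span less than the width of any of their intervals. The durations did not differ by a detectable amount: 9-14d minus 0.25-4d was -0.01 with a 95% interval from -0.18 to 0.16. Nr3c1 had the lowest spread of the list, with a within-group SD of 0.17 log2 units beside a median of 0.20 over all probe sets.

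Fkbp5 rose most. It codes for FKBP51, a co-chaperone that binds the receptor's heat shock protein complex, lowers its affinity for hormone and so closes a feedback loop. Its probe set (chromosome 20, minus strand, 6637478 to 6725834) had a log2 change of 1.97 at 0.25-4d (SE 0.42, 95% interval 1.11 to 2.84, adjusted p = 0.00622), a 3.93-fold up-regulation. Of all 26208 probe sets only 7 rose further in that group. At 5-8d the log2 change was 0.09 (SE 0.54, adjusted p = 0.926) and at 9-14d it was 0.04 (SE 0.49, adjusted p = 0.958). The late intervals are wide, from -1.01 to 1.19 at 5-8d and from -0.96 to 1.03 at 9-14d, which reaches close to or past 2-fold in both directions. The fall from the first days was itself past the test, with a difference of -1.88 at 5-8d (SE 0.46, adjusted p = 0.00322) and -1.94 at 9-14d (SE 0.40, adjusted p = 0.000364). The within-group SD, 1 value pooled over all groups, was 0.80 log2 units, 3.94 times the median probe set. The 0.25-4d group holds hours and days of treatment together, so differences between rats and change with time inside it cannot be told apart.

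Ddit4 also rose early and fell later. It codes for REDD1, which restrains the growth kinase complex mTORC1 and is induced by glucocorticoids, energy shortage and low oxygen. The probe set (chromosome 20, minus strand, 27252273 to 27254733) had a log2 change of 1.40 at 0.25-4d (SE 0.36, 95% interval 0.67 to 2.14, adjusted p = 0.0247), or 2.65-fold up. The value was -0.52 at 5-8d (SE 0.46, adjusted p = 0.446) and -0.38 at 9-14d (SE 0.41, adjusted p = 0.484), neither past the test. Against 0.25-4d the gene was lower by 3.80-fold at 5-8d and by 3.44-fold at 9-14d. These differences of -1.93 (SE 0.39, adjusted p = 0.000511) and -1.78 (SE 0.34, adjusted p = 0.000143) are among the largest falls between the durations, at rank 71 and 62 of 26208. With an adjusted p below 0.01 as the limit, the rise at 0.25-4d is not called.

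Tsc22d3 codes for GILZ, a leucine zipper protein that carries part of the anti-inflammatory action of glucocorticoids. Its probe set (chromosome X, minus strand, 128336408 to 128394559) was 2.08-fold up at 0.25-4d, with a log2 change of 1.06 (SE 0.21, adjusted p = 0.00275). The value was 0.64 at 5-8d (SE 0.26, adjusted p = 0.0711) and 0.34 at 9-14d (SE 0.24, adjusted p = 0.26). The difference from the first days was -0.41 at 5-8d (SE 0.22, adjusted p = 0.207), not past the test, and -0.71 at 9-14d (SE 0.19, adjusted p = 0.00519). Whether its course differs from that of Fkbp5 and Ddit4 was not tested.

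The DNA in front of the transcription start of these genes was searched for the glucocorticoid response element, the paired half-sites that the receptor binds. The RefSeq promoters used, 250 bases before to 50 after a start on the build GRCr8, hold 13 windows for 8 of the 10 genes, and Zbtb16 and Cebpd have no entry. The loose form GNACANNNTGTNC, searched on both strands, was in 0 of the 13 windows and in 0.439% of the 33469 promoters of the table. The strict form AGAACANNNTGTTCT, a part of the loose form, was in 0 of 13 and in 0.0149% of all. The half-site AGAACA alone was in 0 of 13 and in 20.7% of all. No match says only that these letters are not in this window. The windows of the 2 genes that rose most in the first days are printed here, in lower case throughout because no motif was found to mark. Fkbp5 lies at chr20:6543506-6543805 and Ddit4 at chr20:28436988-28437287, both on the minus strand of GRCr8 and written 5′ to 3′.
Fkbp5: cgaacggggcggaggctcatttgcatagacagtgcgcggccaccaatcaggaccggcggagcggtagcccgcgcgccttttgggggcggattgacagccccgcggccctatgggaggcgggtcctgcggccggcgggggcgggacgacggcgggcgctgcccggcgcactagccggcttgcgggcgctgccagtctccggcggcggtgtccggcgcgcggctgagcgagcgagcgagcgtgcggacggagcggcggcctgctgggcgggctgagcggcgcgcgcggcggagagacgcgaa
Ddit4: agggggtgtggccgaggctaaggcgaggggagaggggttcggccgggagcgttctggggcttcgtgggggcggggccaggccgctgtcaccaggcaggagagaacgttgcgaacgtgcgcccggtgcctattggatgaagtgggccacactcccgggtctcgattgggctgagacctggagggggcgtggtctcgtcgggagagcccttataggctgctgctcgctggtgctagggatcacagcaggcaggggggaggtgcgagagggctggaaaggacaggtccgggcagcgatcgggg

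Of the transcription factors among the responsive genes, Klf15, Zbtb16 and the minus-strand Klf9 probe set rose by less than 2-fold in the first days, and Cebpb and the plus-strand Klf9 probe set did not pass the test. Klf15, a Krüppel-like factor that switches on amino acid breakdown in muscle, had the most precise rise (chromosome 4, plus strand, 124714395 to 124726991). Its log2 change was 0.83 at 0.25-4d (SE 0.14, adjusted p = 0.00085), or 1.78-fold. It was 0.41 at 5-8d (SE 0.18, adjusted p = 0.103) and 0.21 at 9-14d (SE 0.16, adjusted p = 0.32). Klf15 was lower at 9-14d than at 0.25-4d by a log2 difference of -0.62 (SE 0.13, adjusted p = 0.00071). At 5-8d the difference of -0.42 (SE 0.16) missed the threshold with an adjusted p of 0.0514, and passed it with 0.046 when only probe sets with a gene symbol were adjusted.

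Zbtb16, the zinc finger repressor PLZF and a strongly steroid-induced gene in many cells, rose 1.89-fold at 0.25-4d, with a log2 change of 0.92 (SE 0.24, adjusted p = 0.0304). Its probe set lies on chromosome 8, minus strand, 51931505 to 52094813. The value was -0.03 at 5-8d (SE 0.31, adjusted p = 0.954) and -0.61 at 9-14d (SE 0.28, adjusted p = 0.0896). From the first days the gene fell by 0.95 at 5-8d (SE 0.26, adjusted p = 0.00899) and by 1.53 at 9-14d (SE 0.23, adjusted p = 5.81e-06) on the log2 scale. The second of these is a 2.89-fold decline. With an adjusted p below 0.01 as the limit, the rise of Zbtb16 at 0.25-4d is lost.

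Klf9, a Krüppel-like factor that is an early target of glucocorticoids, was measured by a probe set on each strand of the gene. The probe set on the gene's own strand (chromosome 1, plus strand, 226420949 to 226446376) had log2 changes of 0.49 at 0.25-4d (SE 0.16, adjusted p = 0.0939), -0.20 at 5-8d (SE 0.21, adjusted p = 0.544) and -0.43 at 9-14d (SE 0.19, adjusted p = 0.0706). None of these passed the test, although the first would with 0.0297 if the 3 comparisons were adjusted together. The differences between durations did, with -0.69 for 5-8d minus 0.25-4d (SE 0.18, adjusted p = 0.00518) and -0.93 for 9-14d minus 0.25-4d (SE 0.15, adjusted p = 2.48e-05).

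The other Klf9 probe set is annotated on the minus strand, at 226421570 to 226421986, a stretch of 417 bases inside the Klf9 gene. The annotation matches 23 of its 25 probes to the Klf9 mRNA as well, so it cannot be read as a measure of an antisense RNA alone. It moved as the first did but further, with log2 changes of 0.87 (SE 0.24, adjusted p = 0.0407), -0.54 (SE 0.31, adjusted p = 0.21) and -0.82 (SE 0.28, adjusted p = 0.022) at the 3 durations. Its difference from 0.25-4d was -1.41 at 5-8d (SE 0.26, adjusted p = 0.0002) and -1.69 at 9-14d (SE 0.23, adjusted p = 1.05e-06). The 2 probe sets share transcripts and count as 1 gene.

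Cebpb, the CCAAT/enhancer binding protein beta, did not pass the test in any comparison (chromosome 3, plus strand, 158826021 to 158827848). Its log2 change was 0.37 at 0.25-4d (SE 0.13, adjusted p = 0.121), 0.40 at 5-8d (SE 0.17, adjusted p = 0.0798) and 0.19 at 9-14d (SE 0.15, adjusted p = 0.324). The intervals of the first 2 lie above 0, from 0.10 to 0.64 and from 0.06 to 0.74. The first passes with an adjusted p of 0.0426 when the 3 comparisons are adjusted together.

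Sgk1 was called at the last duration and not in the first days. It codes for a kinase that is induced by serum and glucocorticoids and acts on ion channels and pumps. The probe set (chromosome 1, minus strand, 23501257 to 23637472) had a log2 change of 0.47 at 0.25-4d (SE 0.40, adjusted p = 0.625), 1.29 at 5-8d (SE 0.51, adjusted p = 0.0612) and 1.40 at 9-14d (SE 0.46, 95% interval 0.46 to 2.34, adjusted p = 0.0189). It is called at 9-14d alone, at 2.63-fold, a call that is lost with an adjusted p below 0.01 as the limit, and at 5-8d the 2.44-fold value missed the adjusted p. Neither difference from 0.25-4d passed the test. At 5-8d it was 0.82 (SE 0.43, adjusted p = 0.197). The increase from 0.25-4d to 9-14d was 0.93 (SE 0.37) with an adjusted p of 0.0535, which passes at 0.043 once the median of all probe sets is subtracted from each comparison. The within-group SD was 0.76 log2 units, second only to Fkbp5 in the list.

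In the direct comparison of the durations, 3 members were called lower at 5-8d than at 0.25-4d, namely Fkbp5, Ddit4 and the minus-strand Klf9 probe set. Of all probe sets 1.30% were. At any size 5 members were lower and 0 higher, where 7.64% of all probe sets were lower and 13.6% higher. At 9-14d 4 members were called lower than at 0.25-4d, those 3 and Zbtb16, against 1.04%. At any size 7 of the 10 were lower there and 0 higher, against 17.4% and 18.1% of all probe sets. Both Klf9 probe sets are among the 5 and among the 7, although they count as 1 gene. Between 9-14d and 5-8d 0 members differed by limma in either direction, also at an unadjusted p under 0.05, and of all probe sets 0.305% were higher and 0.103% lower at any size. Here the intervals are wide, as the groups hold 6 and 4 rats. For Zbtb16 the difference was -0.57 with an interval from -1.19 to 0.04.

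**Figure D2:**
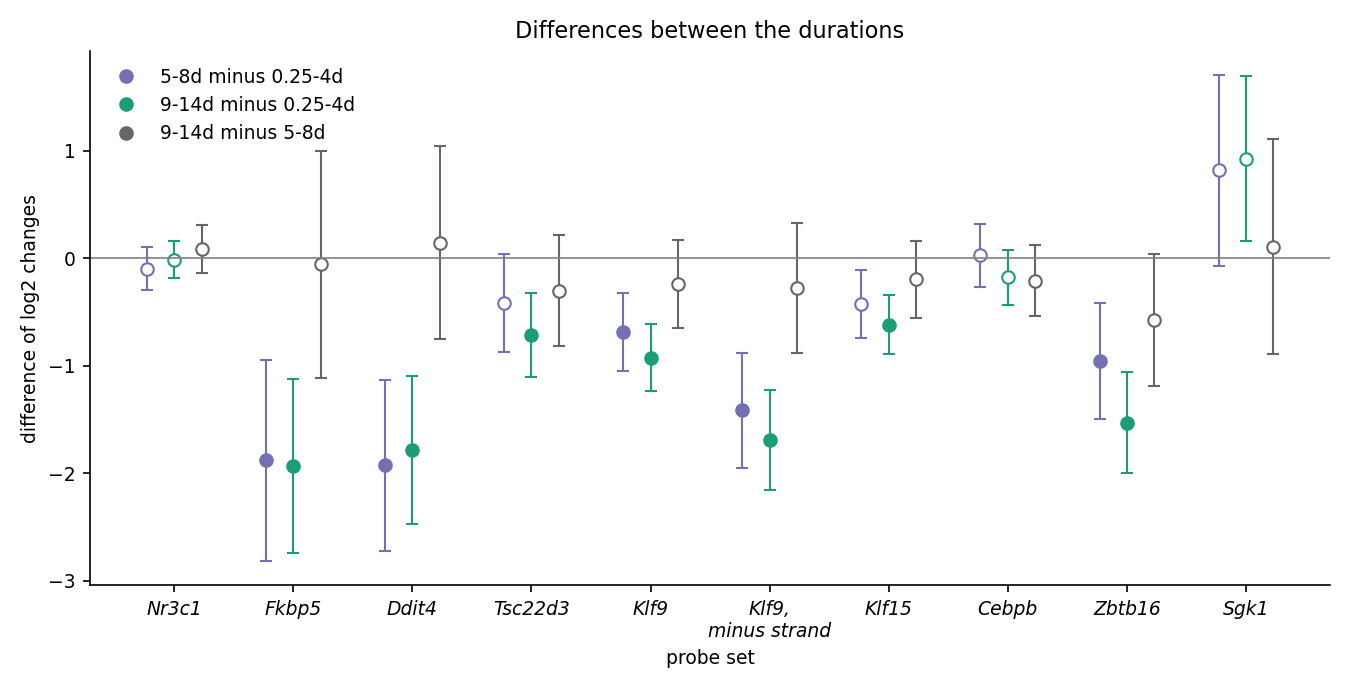
Difference of the log2 changes between durations (y axis) for the 10 probe sets (x axis), with 95% confidence intervals. Filled points have an adjusted p below 0.05. For 7 probe sets the 9-14d group lies below the 0.25-4d group, Fkbp5 and Ddit4 by nearly 2 log2 units, and 0 of them differ between 9-14d and 5-8d.

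The decline of the early up-regulated members was set beside that of all probe sets called up-regulated at 0.25-4d, with the limit that the rats that chose these probe sets also enter the difference. Of the 80 probe sets, 23 (28.8%) were lower at 5-8d than at 0.25-4d and 30 (37.5%) were lower at 9-14d, at an adjusted p below 0.05. Among the 3 members called up-regulated, 2 and 3 were. These counts are of probe sets lower than in the first days, which can still lie above the controls.

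The probe sets whose 3 log2 changes lie closest to those of a called member were named, by Euclidean distance. Nearest to Fkbp5 were Ggta1 (distance 0.38), Il6ra (0.42), the interleukin 6 receptor, and Foxo1 (0.43), a forkhead factor that drives atrophy genes. Nearest to Ddit4 were the amino acid transporter gene Slc43a1 (0.39), Aldh3a1 (0.46) and Omd (0.54). Tsc22d3 had Sdc4 (0.10), Cnksr1 (0.18) and the clock gene Per2 (0.20) beside it. For Sgk1 these were Efhd2 (0.07), Tcp11l1 (0.10) and the nucleolar gene Npm1 (0.12). The distances rest on 3 values that share the same controls, and Fkbp5 and Ddit4 have more distant neighbours than the other 2.

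A list of 26 other glucocorticoid-responsive genes, also chosen with earlier results of these data known, held 25 that were measured, by 27 probe sets. At 0.25-4d, 8 probe sets were called up-regulated and 0 down-regulated, where 0.305% and 0.244% of all probe sets were. At any size 12 rose and 1 fell, against 1.49% and 2.06%, and the list's median was 0.77, beside -0.01 over all probe sets. Il6ra (log2 change 1.69, SE 0.20, adjusted p = 6.59e-06), Foxo1 (1.62, SE 0.25, adjusted p = 0.000314) and Errfi1 (1.58, SE 0.34, adjusted p = 0.00702), an inhibitor of the EGF receptor, rose in the first days and were not past the test later. The fall from 0.25-4d was itself past the test for Il6ra and Foxo1 at both later durations. For Errfi1 it was not, with -0.95 at 5-8d (adjusted p = 0.0692) and -0.80 at 9-14d (adjusted p = 0.053). Pik3r1, Foxo3 and the clock gene Per1 rose at that time at less than 2-fold, with log2 changes of 0.93, 0.65 and 0.86. The 1 that fell was Irs2, at -0.53 (adjusted p = 0.0232). Irs2 was also lower at 5-8d (-0.51, adjusted p = 0.0265) and 9-14d (-0.87, adjusted p = 7.51e-05).

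Other genes of this list held their rise. Trim63, the muscle ubiquitin ligase MuRF1, had log2 changes of 1.48, 1.78 and 1.11 at the 3 durations. Fbxo32, the ligase atrogin-1, had 0.94, 1.10 and 0.82, past the test at each and past 2-fold at 5-8d. The metallothionein genes Mt1a and Mt2A, which bind zinc and copper, were up by 2.73 to 3.31 log2 units at 0.25-4d and by 3.32 to 4.12 at 9-14d, over 4 probe sets. Of these 3 are marked as cross-hybridising, and the genes cannot be separated by those 3. The 1 not so marked is of Mt2A, with log2 changes of 3.31, 3.75 and 3.96 at the 3 durations. Cdkn1a, the cell cycle inhibitor p21, rose late, from 0.77 (adjusted p = 0.149) to 2.16 and 2.75.

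A further group was down-regulated late. Mstn, the growth inhibitor myostatin, had a log2 change of 0.86 at 0.25-4d (adjusted p = 0.153), then -2.49 at 5-8d and -1.89 at 9-14d. Lpin1, Sesn1 and the phosphatase gene Dusp1 were also called down-regulated at 5-8d, at -1.91, -1.17 and -2.29. Rgs2 was called at that time alone, at -1.03. So was Sesn1, which at 9-14d had -0.96 (adjusted p = 0.00718), below 2-fold. At less than 2-fold, Nfkbia was lower at 5-8d (-0.51, adjusted p = 0.0386) and Tat at 9-14d (-0.29, adjusted p = 0.0443). In all, the list held 7 up-regulated and 5 down-regulated probe sets at 5-8d. At 9-14d it held 6 and 3. Of all probe sets 2.55% and 2.66% were called at 5-8d, and 3.01% and 2.12% at 9-14d. Against 0.25-4d, 10 of the 27 were lower and 1 higher at 5-8d, and 12 lower and 5 higher at 9-14d, where 7.64% and 13.6% of all probe sets were at 5-8d and 17.4% and 18.1% at 9-14d. Lcn2, Angptl4, Bcl6, Anxa1, Cited2 and Pdk4 did not pass the test at any duration.

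Genes that supply, fold or escort the receptor were measured by 28 probe sets of 18 genes. At 0.25-4d limma called 0 of them, with 7 at an unadjusted p under 0.05. At 5-8d it called 4 up-regulated and 1 down-regulated, and at 9-14d 4 up-regulated and 0 down-regulated, with 17 at an unadjusted p under 0.05. Of all probe sets 0.305%, 2.55% and 3.01% were called up-regulated at the 3 durations, and 0.244%, 2.66% and 2.12% down-regulated. At any size 2 rose and 2 fell at 0.25-4d, against 1.49% and 2.06% of all. At 5-8d 6 rose and 2 fell, against 14.9% and 11.4%. At 9-14d 6 rose and 5 fell, against 17.3% and 18.2%. H6pd, which makes the cofactor for the enzyme that regenerates active hormone, had log2 changes of 0.99, 2.00 and 1.63, past the test at each duration. Hsp90aa1 (1.62 at 5-8d, 1.56 at 9-14d) and Ptges3 (1.04 and 1.02), which code for a heat shock protein of the receptor complex and for its partner p23, were up-regulated at the later durations. The Hsp90aa1 probe set is marked as cross-hybridising.

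The hormone-inactivating enzyme gene Hsd11b2 was called up-regulated at 5-8d (1.05, SE 0.31, adjusted p = 0.013) and 9-14d (1.30, SE 0.28, adjusted p = 0.000793). Its counterpart Hsd11b1, which regenerates the hormone, did not pass the test at any duration, with 0.32, 0.49 and 0.10. Fkbp4, the co-chaperone FKBP52 that acts against FKBP51, fell at each duration at less than 2-fold, with -0.46, -0.51 and -0.76. Nr3c2, the mineralocorticoid receptor gene, also fell at each, with -0.96, -1.49 and -0.89, and was called at 5-8d. The 9 probe sets of Hspa8, all marked as cross-hybridising, did not pass the test at any duration.

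**Figure D3:**
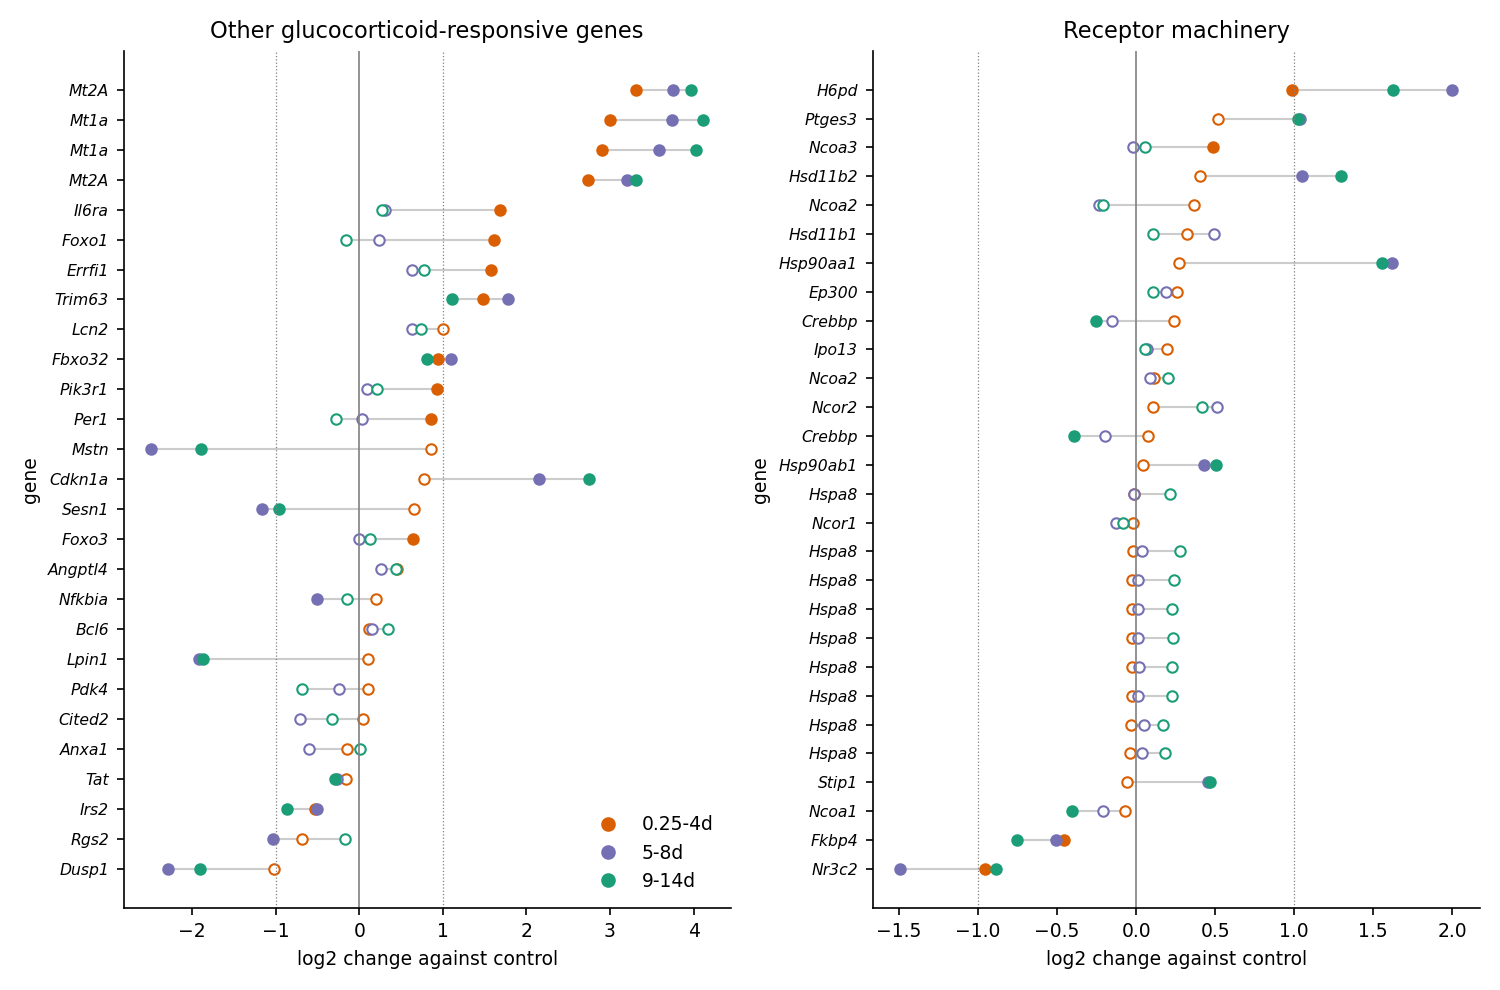
Log2 change against the controls (x axis) for each probe set of the other glucocorticoid-responsive genes and of the receptor machinery (y axis), coloured by duration. Filled points have an adjusted p below 0.05, dotted lines mark 2-fold. Il6ra, Foxo1 and Errfi1 are filled at 0.25-4d alone, Trim63, Fbxo32 and the metallothionein genes at each duration, and Mstn, Lpin1 and Dusp1 at the later durations.

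Relatives of the members by family, 32 genes with 35 probe sets (Fkbp, Klf, Tsc22 domain, C/EBP, Sgk and Zbtb genes and Ddit4l), held 0 calls by limma at 0.25-4d, with 10 at an unadjusted p under 0.05. Of all probe sets 0.305% were called up-regulated then and 0.244% down-regulated. At any size 1 of the relatives rose then, Cebpa (0.45, adjusted p = 0.047), where 1.49% of all probe sets did. Ddit4l, the paralog of Ddit4, was called down-regulated at 5-8d (-2.85, SE 0.74, adjusted p = 0.0047) and 9-14d (-2.30, SE 0.67, adjusted p = 0.00878). Fkbp1a was called up-regulated and a probe set of Tsc22d4 down-regulated at 5-8d, at 1.14 and -1.47. Of all probe sets 2.55% were called up-regulated at 5-8d and 2.66% down-regulated. The median of the relatives was near 0 at 0.25-4d, -0.06, beside 0.85 for the members. Against 0.25-4d, 11 of the 35 were lower and 4 higher at 5-8d at any size, where 7.64% and 13.6% of all probe sets were. At 9-14d 6 were lower than at 0.25-4d and 9 higher, against 17.4% and 18.1%.

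Of 20 probe sets of 17 genes downstream of Ddit4, Klf15 and Sgk1, 1 was called up-regulated at 0.25-4d, against 0.305% of all. This was Eif4ebp1, the translation repressor that mTORC1 inactivates, with log2 changes of 1.45, 1.59 and 0.81 at the 3 durations, past the test at each. At any size 4 of the 20 rose at 0.25-4d and 0 fell, against 1.49% and 2.06% of all. Beside Eif4ebp1 these were Prodh, a proline-degrading enzyme gene (0.86, adjusted p = 0.00407), Dbt (0.72, adjusted p = 0.0495) and Nedd4l (0.48, adjusted p = 0.0388), all below 2-fold. The branched-chain keto acid dehydrogenase gene Bckdhb was lower late, at -1.06 and -1.01. Against 0.25-4d, 4 of the 20 were lower and 2 higher at 5-8d at any size, where 7.64% and 13.6% of all probe sets were. At 9-14d 8 were lower than at 0.25-4d and 3 higher, against 17.4% and 18.1%. Dbt was among the lower ones at both, with -1.07 (adjusted p = 0.000842) and -1.22 (adjusted p = 1.74e-05).

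Markers of other cell types changed in part of the same groups, and their part in the members' changes was not tested. Of all probe sets, 0.305%, 2.55% and 3.01% were called up-regulated at the 3 durations, and 0.244%, 2.66% and 2.12% down-regulated. Of 10 macrophage and leukocyte markers, 1 was up-regulated at 0.25-4d and 6 at 9-14d, when Sgk1 was called. The list's median was 0.15, -0.01 and 1.14 at the 3 durations. The early one was Cd163 (1.01, adjusted p = 0.046), a macrophage receptor that is itself known to be induced by glucocorticoids, and at 9-14d the 6 were Lyz2 (1.80), Cd68 (1.51), Ptprc (1.31), Itgam (1.22), Cd163 (1.21) and Csf1r (1.07). Of 11 muscle fibre probe sets, 0 were called at 0.25-4d and 2 were called down-regulated at each later duration, a Myh2 probe set (-3.44 and -2.98) at both, Pvalb at 5-8d and Myh7 at 9-14d. The Myh2 probe sets disagree, as another had -0.92 (adjusted p = 0.189) and 0.11 (adjusted p = 0.869), and one shared with Myh4 had -0.57 and -0.54, none of them past the test. One shared with Myh1 fell at less than 2-fold and passed at both, with -0.70 (adjusted p = 0.01) and -0.69 (adjusted p = 0.00422). At any size 4 of the 11 muscle fibre probe sets fell at 5-8d and 6 at 9-14d, against 11.4% and 18.2% of all probe sets. Of 5 fibroblast markers 3 were called down-regulated at 5-8d, Col1a1 (-3.23), Lum (-2.0) and Col3a1 (-1.31), and Col1a1 was again at 9-14d (-2.18). Of 5 fat cell, 3 endothelial and 4 Schwann cell markers limma called 0 at each duration, with at most 3, 2 and 0 at an unadjusted p under 0.05. At any size 2 of the 3 endothelial markers fell at both later durations. These were Tek (-0.56, adjusted p = 0.00943, and -0.47, adjusted p = 0.0115) and Cdh5 (-0.38, adjusted p = 0.0257, and -0.52, adjusted p = 0.000871). Of 2 satellite cell markers, Myf5 was called up-regulated at 5-8d (1.52) and 9-14d (2.15), and Pax7 fell at less than 2-fold at both (-0.56, adjusted p = 0.0106, and -0.70, adjusted p = 0.000545). Levels of these markers per group are not given by the values used here.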

How the data were processed

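RNA of the proximal gastrocnemius of 28 rats was hybridised to Affymetrix Rat Gene 1.0 ST arrays. The methods name RMA, limma and Benjamini-Hochberg adjustment, the submitters' processing notes MAS5 and RMA, and the table's first line a lowess normalisation. The authors deposited 1 table of fitted comparisons with log2 changes and adjusted p-values, and the log2 changes were used as deposited. The planned fit on single arrays could not be done. The deposited p-values were unadjusted, turned into moderated statistics at 28.26 degrees of freedom (24 residual and 4.26 prior, at which the 3 comparisons give a probe set the same SD), and adjusted again over all 26208 probe sets, which changed 0 calls. The steps were tested on simulated data made with limma 3.58.1 (R 4.3.3). The number of rats limits the precision. The members and all gene lists were chosen with earlier results of these data known. Genes named are all members, every listed gene called against the controls except 1 that is not reported here, and the 3 nearest probe sets of each called member. Listed genes that were not called are named after their values were seen. Il6r and Plin1 were read as Il6ra and Plin, and Glul, Fkbp1b, Sgk3, Rheb, Pecam1 and Kdr are not analysed here. Alternatives were other thresholds, scopes of adjustment, centring, probe set filters and degrees of freedom. Calculations used scipy 1.17.1, numpy 2.4.6, pandas 2.3.3 and matplotlib 3.10.9.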

Additional observations from a re-analysis of the deposited data

Results flagged for a closer look

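These results differed between durations in a test of the difference itself, each as a log2 difference from 0.25-4d with limma's moderated statistic adjusted over all probe sets. Fkbp5 was lower by -1.88 at 5-8d and -1.94 at 9-14d, and Ddit4 by -1.93 and -1.78. Klf9 differed by -0.69 and -0.93, its minus-strand probe set by -1.41 and -1.69, and Zbtb16 by -0.95 and -1.53. For Tsc22d3 (-0.71) and Klf15 (-0.62) the difference passed the test at 9-14d alone. The mean of the controls cancels from these differences, and their SE rests on a spread pooled over all 4 groups, controls included.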

How the results depend on the processing

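Over 6 alternatives (an adjusted p below 0.01, centring on the median, adjustment over the 3 comparisons together, only probe sets with a symbol, no cross-hybridising probe sets, and 24 degrees of freedom) 351 of 360 values of the members kept their side of the threshold and 9 changed it. Only centring alters a log2 change, and by far less than any value that passed, so a reversal of direction was not possible. No member probe set is marked as cross-hybridising, so that filter acts on them through the adjustment alone. The counts of called members rest on the fold change minimum. Without it the counts against the controls are 7, 1 and 3 at the 3 durations in place of 3, 0 and 1, and the counts of differences are 5 (5-8d minus 0.25-4d) and 7 (9-14d minus 0.25-4d) in place of 3 and 4. With a minimum of 1.5-fold, chosen after seeing the data, they are 6, 1, 2, 5 and 7. An adjusted p below 0.01 leaves 2 members called at 0.25-4d (Ddit4 is lost) and 0 at 9-14d (Sgk1 is lost). With the plus-strand Klf9 probe set alone, also chosen after seeing the data, 2 and 3 members differ from 0.25-4d. Over all probe sets the fold minimum moves the counts from 144, 1366 and 1343 to 929, 6869 and 9295. Leaving out each rat was not run, since the values used are fitted comparisons. No paired analysis was run, because by the methods each array is 1 rat and the groups hold different rats. The spread of Fkbp5, Ddit4 and Sgk1 and the 4 rats at 5-8d limit what can be seen at the later durations.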
